A study of Homo sapiens with 4 samples.

Results

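The 10 genes described here carry the synthesis and the transport of catecholamines, serotonin and acetylcholine, and were taken as a list by name. They are TH, DDC, DBH and PNMT for catecholamine synthesis, SLC18A1 and SLC18A2 for vesicular and SLC6A2 for plasma membrane monoamine transport, TPH1 for serotonin synthesis, and CHAT and SLC18A3 for the synthesis and vesicular transport of acetylcholine. They are 10 of 20163 protein-coding genes in the annotation. A binding site of NRSF/REST was assigned to a gene when it overlapped the gene span or the 10 kb on either side of it. By this rule 3 of the 5323 sites listed at the basal SF-1 dosage and 6 of the 5059 sites listed at the increased dosage belong to the 10 genes.

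The sites come from chromatin immunoprecipitation and sequencing of NRSF/REST in the H295R/TR SF-1 line, which was subcloned from H295R adrenocortical carcinoma cells and in which doxycycline switches on additional SF-1, a nuclear receptor of steroidogenic tissues. The basal library was made without doxycycline and the other after 3 days of doxycycline, and both therefore come from cells that carry the inducible construct. With only 1 library for either dosage, no value has a replicate check, no test between dosages was made and differences describe these libraries only. The lists give position, an order number and a score that is 1000 for every site. What the order ranks is not given in the sources used here, but wide sites stand early in it. The depth of the libraries is unknown. RNA was not measured in these samples, so neither cell identity nor expression of the 10 genes could be checked from them. The study profiled RNA of the same line on arrays in separate experiments, which were not used here.

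NRSF/REST is a zinc finger protein that binds a long bipartite element and recruits corepressors, and it is best known for keeping neuronal genes silent outside the nervous system. Catecholamines are made in neurons and in chromaffin cells of the adrenal medulla, which lies next to the steroid-producing cortex from which H295R cells derive. TH makes L-DOPA, DDC turns it into dopamine, DBH turns dopamine into noradrenaline and PNMT makes adrenaline. DDC also catalyses the last step of serotonin synthesis, after TPH1.

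The matches to the NRSF/REST consensus that the results turn on are shown first. The consensus was searched as the parts CTGTCC and GGTGCTG with 2 free bases between them, so that 13 bases are fixed, and capitals mark the bases of a match that equal them. All are hg19 sequence written 5′ to 3′ on the strand of the match, flanked by 4 bases upstream and 2 downstream. The first 3 matches lie in a site called at both dosages:
CHAT and SLC18A3, upstream, chr10:50815172-50815192, minus strand: ggagCTGTCCagGGTGCTGgc
DDC, intron 1, chr7:50620864-50620884, plus strand: ggatCTGTCCatGGTaCTGcc
SLC6A2, downstream, chr16:55744581-55744601, minus strand: ggcctTGTCCaaGGTGCTGat
The remaining 2 have 1 mismatch as well and lie in the windows of the same genes but in no site at either dosage:
SLC6A2, downstream, chr16:55746088-55746108, minus strand: ctttCTGTCCagGGTGCTttc
CHAT, intron 7, chr10:50841804-50841824, plus strand: ctggCTtTCCtgGGTGCTGcc
The upstream match of CHAT and SLC18A3 equals the consensus at every fixed base. With position 1 at the 5′ end of the consensus, the match in DDC differs by G12A, that in the site of SLC6A2 by C1T, the second match at SLC6A2 by G15T and the match in CHAT by G3T.

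At the basal dosage 4 of the 10 genes had a site, namely DDC, SLC6A2, CHAT and SLC18A3, and the same 4 genes had one at the increased dosage, as did SLC18A2. CHAT and SLC18A3 share their sites, because SLC18A3 lies inside the span of CHAT. For comparison, 13.9% of all protein-coding genes had a site by the same rule in the basal list, 13.6% in the other list and 10.5% in both. The windows of the 10 genes measured from 22.4 to 127 kb, and among the 15399 protein-coding genes with windows in this range the shares were 10.7% and 10.4%. Counting only sites that overlap the gene span left 1 gene at the basal dosage, DDC, where 9.91% of protein-coding genes had such a site, and 4 at the increased dosage, where 9.74% did. Besides DDC, these were SLC18A2 through a site of 149 bp, and CHAT and SLC18A3 through a shared site of 99 bp. Both sites were called at the increased dosage only, stood late in the list and held no consensus match with up to 2 mismatches. Within 50 kb there were 8 and 9 of the 10 genes, against 25.9% and 25.3% of protein-coding genes. The 10 genes were chosen by name, with earlier results of these data known. These counts therefore describe the list only and carry no test.

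**Figure D1:**
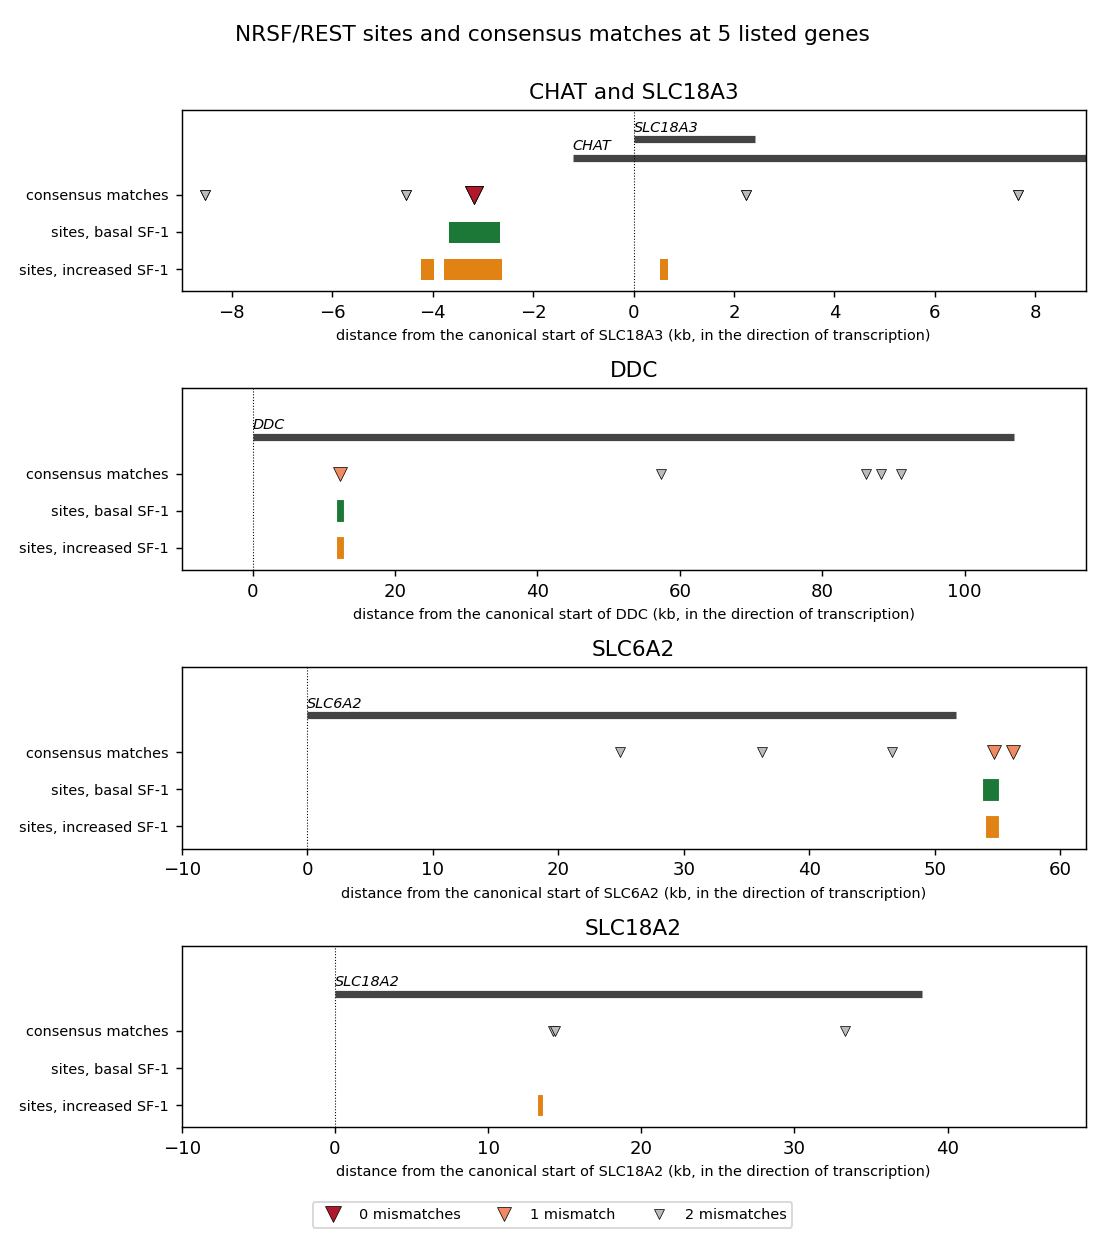
Maps of the 4 loci with a site; the x axis is the distance in kb from the canonical start of the gene named under each panel, dark bars are gene spans, triangles are consensus matches by number of mismatches (larger for fewer), green bars are basal sites and orange bars sites at the increased dosage, each drawn with a thin outline that widens the narrowest ones slightly. The match without a mismatch and 2 of the 3 matches with 1 mismatch in view lie in a site at both dosages, and the orange sites without a green one hold no match with up to 2 mismatches; the match in CHAT intron 7 lies beyond the right edge of its panel.

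Upstream of the cholinergic genes lay the site that, among the sites of the 10 genes, stood earliest in both lists. CHAT makes acetylcholine from choline and acetyl-CoA, and SLC18A3, the vesicular acetylcholine transporter, loads it into synaptic vesicles. CHAT (ENSG00000070748.19) spans chr10:50817141-50875988 and SLC18A3 (ENSG00000187714.7) chr10:50818356-50820766, both on the plus strand. The basal site, chr10:50814701-50815649, measured 949 bp and had order number 164 of 5323. At the increased dosage it ran from 50814601 to 50815699, measured 1099 bp and had order number 146 of 5059. It contained the basal site whole. It was wider than 94.0% of sites in the basal list and wider than 96.8% of those at the increased dosage, and it stood in the first 3.08% and 2.89% of the lists. It lay in no annotated gene, 1492 bp before the span of CHAT at the basal dosage, and the midpoint of the basal site stood at -3.18 kb from the start of SLC18A3 and at -6.91 kb from the canonical start of CHAT. The consensus match lay 6 bp from the midpoint of the basal site and 31 bp from that of the site at the increased dosage. The sequence around it, with 50 bases on either side, is rich in G and C:
CHAT and SLC18A3, chr10:50815124-50815238, minus strand: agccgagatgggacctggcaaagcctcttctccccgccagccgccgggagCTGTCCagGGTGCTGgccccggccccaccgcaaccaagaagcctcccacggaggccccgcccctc
The basal site held 27 CpG dinucleotides, 2.85 per 100 bp, against a median of 1.00 over all basal sites with quartiles of 0.445 and 2.01.

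The increased dosage had a pair of further sites at these genes that were not listed at the basal dosage. The first, chr10:50814151-50814349, measured 199 bp, had order number 4569 and lay upstream of the wide site, with its midpoint at -4.11 kb from the start of SLC18A3. The second, chr10:50818901-50818999, measured 99 bp, the smallest width in the list, had order number 4843 and overlapped the coding sequence of SLC18A3, whose canonical transcript has a single exon, 0.594 kb after its start. Neither held the consensus with up to 2 mismatches. The fewest mismatches were 3 in the site inside SLC18A3 and over 3 in the other. The site inside SLC18A3 had a GC content of 64.6% and 9.09 CpG per 100 bp, and the upstream site had 54.8% and no CpG, where the medians of the list were 45.2% and 1.00.

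DDC, the aromatic amino acid decarboxylase (ENSG00000132437.18, chr7:50526134-50633102, minus strand), had a single site inside the gene at each dosage. It ran from 50620551 to 50621149 of chromosome 7 at the basal dosage, 599 bp wide with order number 739, and to 50621099 at the increased dosage, 549 bp wide with order number 707. The start was thus the same in both lists and the end differed by the 50-bp step of the lists. The site lay in intron 1 of the canonical transcript, 12.3 kb after its start. The nearest annotated start of any DDC transcript was 7.89 kb from the midpoint of the basal site and 7.92 kb from that of the other. The match with G12A lay 25 bp from the midpoint of the basal site. A further match on the opposite strand, with 3 mismatches, lay in the site at both dosages. The surroundings of the match are:
DDC, chr7:50620818-50620932, plus strand: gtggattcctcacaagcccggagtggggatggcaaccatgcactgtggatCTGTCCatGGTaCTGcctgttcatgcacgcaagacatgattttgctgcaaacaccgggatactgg
The 4 other matches in the window of DDC, all with 2 mismatches, lay in introns 6, 10 and 11 and in no site.

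SLC6A2, the noradrenaline transporter, takes released noradrenaline back up into the cell. The gene (ENSG00000103546.19) spans chr16:55689900-55741557 on the plus strand. Its site lay downstream of the gene, 2294 bp beyond its end in basal cells and 2494 bp after doxycycline. The basal site, chr16:55743851-55744849, measured 999 bp with order number 1249, and the site at the increased dosage, from 55744051, measured 799 bp with order number 1292. Both ended at 55744849, and the 200 bp by which they differed were on the side of the gene. The next annotated gene was ENSG00000278928, a transcript of type TEC, 3517 bp from the basal site, and no protein-coding gene other than SLC6A2 lay within 10 kb. The consensus match was off centre, 240 bp from the midpoint of the basal site and 140 bp from that of the other. It has these surroundings:
SLC6A2, chr16:55744533-55744647, minus strand: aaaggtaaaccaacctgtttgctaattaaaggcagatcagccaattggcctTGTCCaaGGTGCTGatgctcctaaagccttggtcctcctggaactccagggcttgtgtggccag
Toward the other end of the site, at 55744059 to 55744079, stood the consensus parts with 8 free bases in place of 2 and 1 mismatch in each, CTGTCtgcccctccGGgGCTG, and overlapping it the parts with 4 free bases. Parts at distances from 0 to 20 bases other than 2, with up to 1 mismatch in each, were found in 28.8% of all sites at either dosage, and in 12.7% and 12.9% of windows of equal width 10 kb away. It was also the only site of the 10 genes with a form of the SF-1 consensus (CAAGGACA, CAAGGCCA or CAAGGTCA), CAAGGCCA at 55744595 to 55744602 on the plus strand, which overlaps the first bases of the NRSF/REST match. A form of it occurred in 11.4% of all basal sites and 11.5% of those at the increased dosage, against 6.62% and 7.11% of windows. These shares, and those of the parts, cover sites of all widths, with a median of 299 bp in both lists. The site of SLC6A2 was wider, and no share was computed for sites of like width.

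SLC18A2, the vesicular monoamine transporter of neurons and chromaffin cells (ENSG00000165646.14, chr10:119000604-119038941, plus strand), had a site at the increased dosage only. The site, chr10:119013951-119014099, measured 149 bp, had order number 3278 and overlapped coding exon 6 of the canonical transcript, 13.4 kb after its start. It held no match with up to 3 mismatches. The matches closest to the consensus in the window of SLC18A2 were 3 with 2 mismatches, of which those in exons 7 and 8 lay within 1 kb downstream of the site but outside it. At the basal dosage the nearest site was 209 kb from the gene, in SHTN1, with a width of 99 bp. At the increased dosage the next site outside the gene lay 94.7 kb away.

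The 3 sites found at both dosages and the 3 found at the increased dosage only thus differed in width, order number and consensus. The former measured from 549 to 1099 bp, all held the consensus and all stood in the first 25.5% of their lists. The latter measured from 99 to 199 bp, did not hold it and began at 64.8% of the list. The whole lists differ by width in the same way. Among sites of 799 to 1099 bp at the increased dosage 99.8% were also called at the basal dosage and 80.0% held the consensus. Among sites of 199 bp these shares were 47.8% and 21.2%, among sites of 149 bp 20.6% and 9.17%, and among sites of 99 bp 11.2% and 3.58%. Over the complete lists, 64.5% of basal sites (95% Wilson interval 63.2 to 65.7%) and 67.9% of sites at the increased dosage (66.6 to 69.2%) were called at both, and 40.7% and 42.1% held the consensus. Whether the chromatin of the 3 late sites was enriched below the calling threshold at the basal dosage was not tested, as the lists hold no reads. Between the dosages the shared sites changed in width by 150 bp at CHAT and SLC18A3, by -50 bp at DDC and by -200 bp at SLC6A2. Over the 3327 pairs of shared sites the median change was 0 bp with quartiles of -50 and 50 bp, and 94.9% of pairs changed by 200 bp or less.

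**Figure D2:**
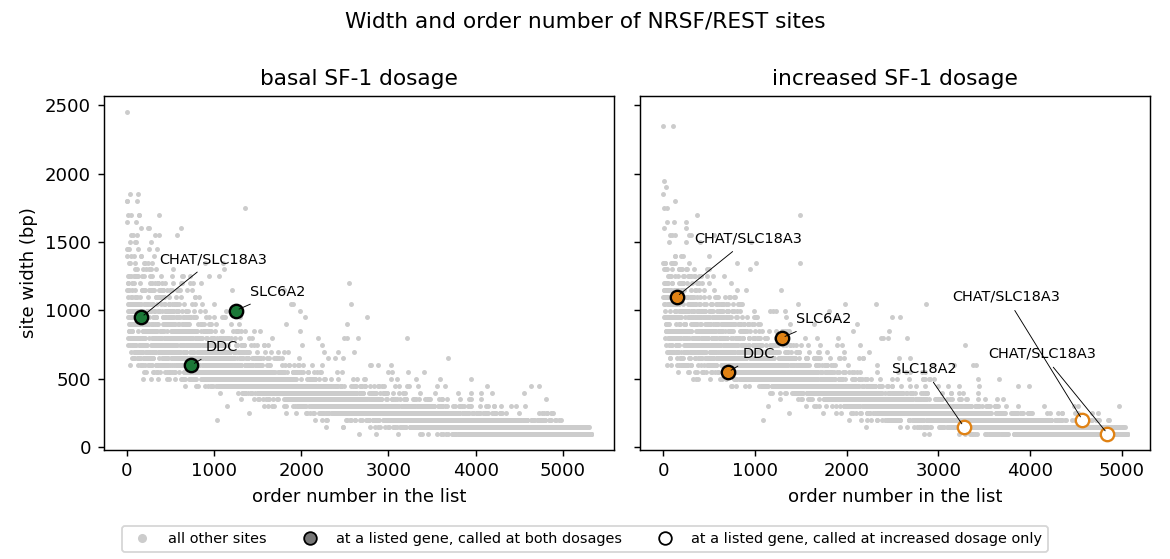
Site width in bp against order number in the list, for the basal list on the left and the list after doxycycline on the right; grey points are all other sites, filled points are sites of the listed genes called at both dosages and open points those called at the increased dosage only. The 3 filled points measure 549 to 1099 bp and stand early in the lists, while the 3 open points measure 99 to 199 bp and stand late.

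The consensus matches of the gene windows were followed from the sequence side as well. The windows of the 10 genes held 36 distinct matches with up to 2 mismatches. The only match without a mismatch lay in a site at both dosages, 2 of the 4 with 1 mismatch did, and none of the 31 with 2 mismatches did at either dosage. Over the main chromosomes, 608 of 816 matches without a mismatch lay in a basal site, which is 74.5%, against 12% of 8057 matches with 1 mismatch and 0.887% of 87405 matches with 2. After doxycycline they were 74.8%, 11.9% and 0.850%. Against so low a genome share, a count of 0 of 31 matches says little about these genes.

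Matches with 1 mismatch differed in how often they lay in a site according to which base was changed. Over the genome, 84 of 151 matches with G12A, the change in DDC, lay in a basal site, which is 55.6% (95% Wilson interval 47.7 to 63.3%). This was the highest share of the 39 possible single changes, but its interval overlaps those of G12C, 53% (47.5 to 58.5%), and G3A, 39.6% (31 to 48.9%). The third change at the position of G12A and G12C, G12T, had a share of 38.4% (32.3 to 44.8%). For C1T, the change in the site of SLC6A2, it was 17.1% (11.9 to 24.1%), and for G15T, that of the second match at SLC6A2, 14.0% (8.96 to 21.4%). The intervals of C1T and G15T overlap, although of the 2 matches at SLC6A2 only that with C1T lay in a site. For G3T, the change in CHAT intron 7, it was 2.48% (1.26 to 4.81%). After doxycycline the values for G12A, C1T, G15T and G3T were 55%, 17.1%, 13.2% and 2.17%. The position alone did not set the share, as matches with G3A and G3C lay in a basal site in 39.6% and 36.3% of cases. These intervals cover counting error over matches of the genome in 1 library.

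**Figure D3:**
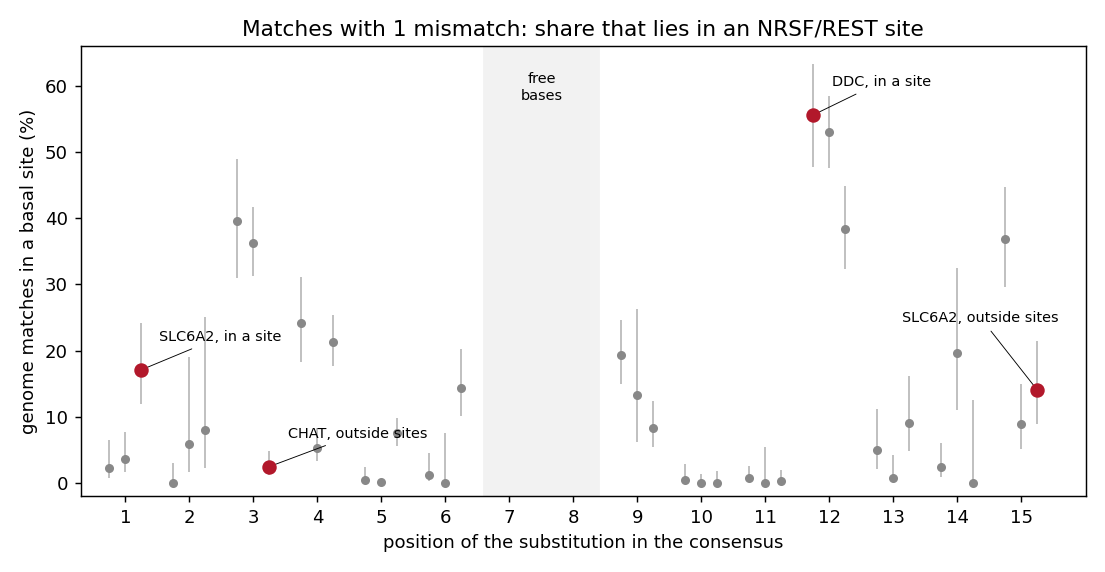
Share in percent of genome matches with a single mismatch that lie in a basal site (y axis) by position of the mismatch in the consensus (x axis), 1 point for each of the 3 possible changes, with 95% Wilson intervals; red points are the changes found at listed genes. The change at DDC has the highest share, 55.6%, with an interval that overlaps those of another change at position 12 and of a change at position 3. The change at CHAT intron 7 has a share of 2.48%.

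TH, DBH, PNMT, SLC18A1 and TPH1 had no site within 10 kb at either dosage. TH, the rate-limiting enzyme of catecholamine synthesis (ENSG00000180176.15, chr11:2185159-2193045, minus strand), was the farthest from any site. Its nearest site lay 713 kb away in the basal list and 712 kb away in the other, in BRSK2 on the downstream side, and 89.1% and 87.8% of protein-coding genes had a nearer one. On the other side of TH the nearest site was 4905 kb away in basal cells and 1781 kb away after doxycycline. The window of TH held 4 consensus matches, all with 2 mismatches, the one closest to its start 1825 bp upstream. 

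DBH, which makes noradrenaline (ENSG00000123454.12, chr9:136501485-136524451, plus strand), was 26.0 kb from a site in FAM163B in basal cells, a distance of 26.1 kb after doxycycline. That site held the consensus without a mismatch, measured 1199 and 1149 bp and had order numbers 81 and 79, earlier than any site of the 10 genes. DBH itself held 4 matches with 2 mismatches, all in introns. PNMT, which makes adrenaline (ENSG00000141744.4, chr17:37824234-37826728, plus strand), was 45.7 kb from a site of 299 bp with the same boundaries in both lists and no match with up to 3 mismatches. The window of PNMT held 6 matches, all with 2 mismatches. TPH1, the tryptophan hydroxylase of peripheral tissues (ENSG00000129167.10, chr11:18039102-18067816, minus strand), was 49.1 kb, and with more SF-1 49 kb, from a site in SERGEF whose match has 1 mismatch, and its window held 2 matches with 2 mismatches.

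SLC18A1, the vesicular monoamine transporter of endocrine cells (ENSG00000036565.15, chr8:20002366-20040717, minus strand), was 13.7 kb from a site in ATP6V1B2 at both dosages, the nearest among the 5 genes without a site. This site measured 549 and 699 bp, and its best match had 2 mismatches. The window of SLC18A1 held no match with up to 2 mismatches, the only such window of the 10. Over all protein-coding genes the median distance to the nearest site was 157 kb at the basal dosage, with quartiles of 46.7 and 378 kb, and 166 kb at the increased dosage, with quartiles of 48.9 and 397 kb. All members but TH, and SLC18A2 at the basal dosage, lay below these medians.

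**Figure D4:**
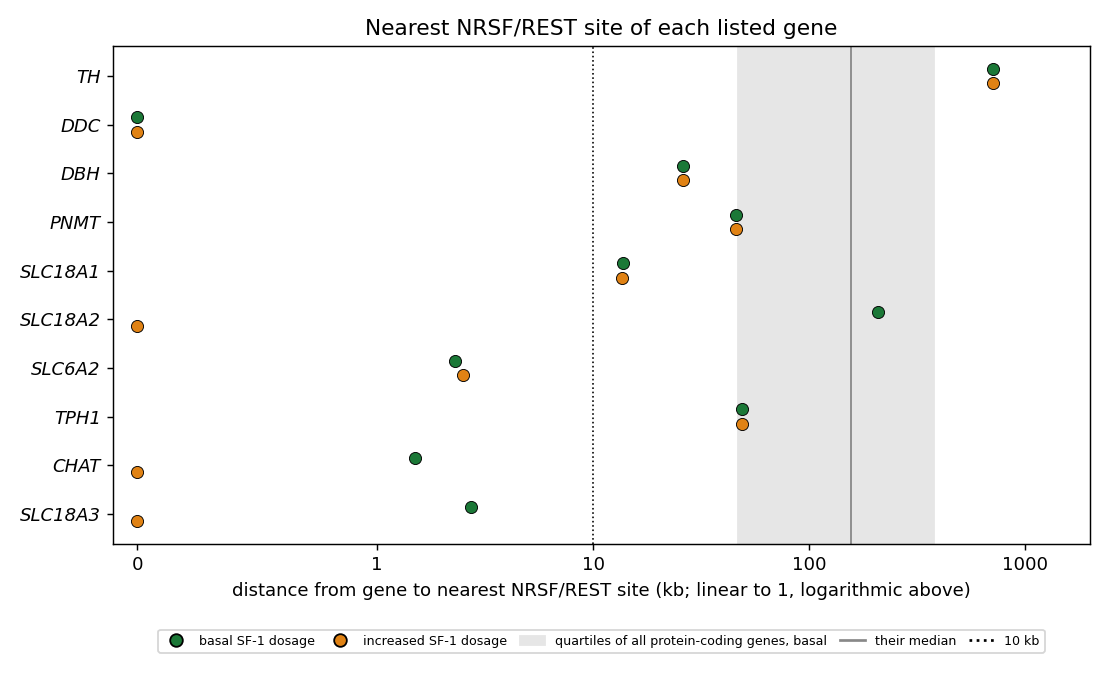
Distance in kb from each listed gene to the nearest NRSF/REST site (x axis, linear to 1 kb and logarithmic above, 0 for a site that overlaps the gene) at the basal (green) and increased (orange) dosage; the grey band and line are the quartiles and median of all protein-coding genes at the basal dosage and the dotted line is 10 kb. Of the 10 genes, 8 lie within 50 kb of a site at the basal dosage, and TH is at 713 kb.

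Another 65 genes of the same pathways were listed by role. Of these, 15 had a site in basal cells, or 23.1%, and 12 had one after doxycycline, or 18.5%. All 12 were among the 15. Over all protein-coding genes the shares were 13.9% and 13.6%. These lists too were chosen with earlier results of the data known. Among other enzymes of synthesis and of the tetrahydrobiopterin cofactor, 3 of 8 had a site at each dosage. They include TPH2, the tryptophan hydroxylase of neurons, and SPR, which makes the cofactor. SLC6A3, the dopamine transporter, was the only one of 8 other transporter genes, with sites of 1099 bp over coding exons at both dosages. None of 5 genes of breakdown, which include MAOA and ACHE, and none of 8 regulators of the chromaffin fate, which include HAND2 and GATA3, had a site at either dosage.

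Among receptors, DRD2 and DRD3 were the 2 of 14 dopamine and adrenergic receptor genes with a site, and both had it at both dosages over an exon with untranslated sequence. The site of DRD2 measured 1699 and 1599 bp, and that of DRD3 749 bp at both dosages, with a consensus match without a mismatch. Of 17 serotonin receptor genes, 7 had a site in basal cells and 5 after doxycycline. The widest were those of HTR1A, 1049 bp at both dosages, HTR3A, 699 and 949 bp, HTR5A, 799 and 949 bp, and HTR6, 799 bp at both. The site over the start of HTR5A had order number 10 in both lists. Of 5 muscarinic receptor genes, 2 had a site in basal cells and 1 after doxycycline, CHRM4, with sites of 999 and 1199 bp. The 3 genes with a site at the basal dosage only, HTR1F, HTR7 and CHRM3, had sites of 99, 99 and 149 bp without a consensus match. Of the 22 basal sites at these genes, 15 were called at both dosages and 10 of these held the consensus, while of the 7 called at the basal dosage only 1 site, in HTR6, held it. At the increased dosage 14 of 16 sites were called at both and 10 of these held the consensus, while the other 2 did not. Over the complete lists, 64.5% of basal sites and 67.9% of the others were called at both, and 40.7% and 42.1% held the consensus. Among all basal sites of 99 and 149 bp, 3.13% and 7.66% held it.

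**Figure D5:**
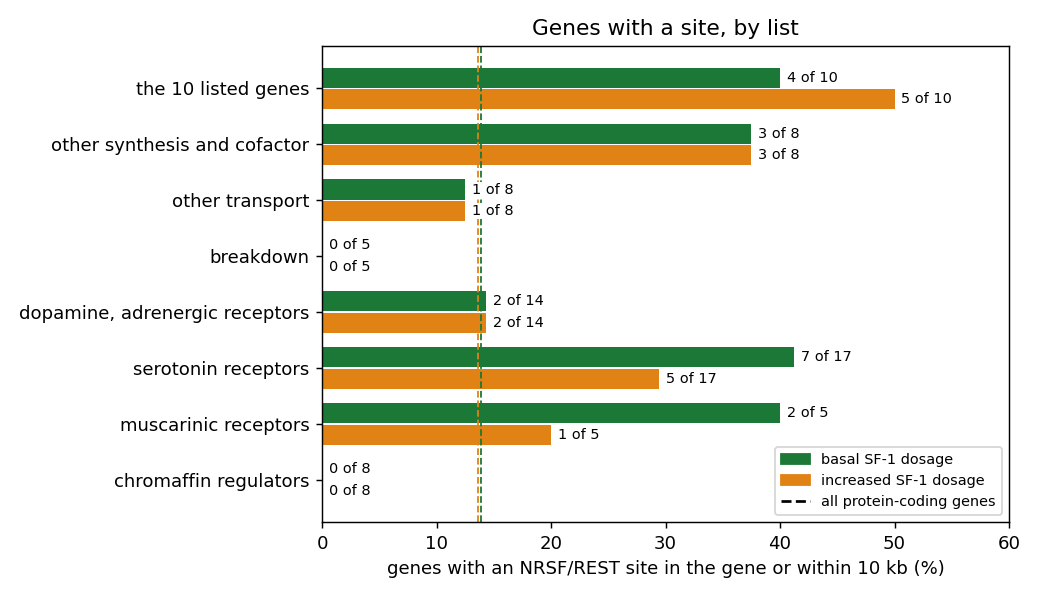
Percent of genes in each list with an NRSF/REST site in the gene or within 10 kb (x axis) at the basal (green) and increased (orange) dosage, with counts beside the bars; the dashed lines are the shares of all protein-coding genes, 13.9% and 13.6%. The bars of the 10 listed genes stand at 4 and 5 of 10, and those of breakdown genes and chromaffin regulators at 0.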

How the data were processed

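Per the labels and the study's methods, reads were mapped to hg19 with ELAND. Each deposited list belongs to 1 NRSF/REST library. The caller (CisGenome) and the use of input DNA as control are given for SF-1 sites and not separately for NRSF/REST. The deposited score is 1000 for every site, so width and order number describe the sites. The labels give 1 mg/ml of doxycycline, the methods 1 µg/ml. Another 2 input DNA libraries were not analysed here.

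Starts were counted from 1. Genes were those of GENCODE release 44 mapped to hg19, and positions use the Ensembl canonical transcript. Sites were called at both dosages at an overlap of at least 1 bp. A site held the consensus if a match with at most 2 mismatches over 13 fixed bases lay wholly inside it. Python 3.11.15, numpy 2.4.6, scipy 1.17.1, pysam 0.24.0 and matplotlib 3.10.9 were used, and scanning and overlap were tested on simulated data. No test was made. The members and lists were chosen with earlier results of these data known. Named genes are all members, the other listed genes with a site (at most the 4 with the widest site per list) and neighbours of a member; HTR1F, HTR7 and CHRM3 were named after their values were seen. Some genes of the lists are counted but not reported here by name. The alternatives were other distances, narrower site sets, overlaps and mismatches.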

Additional observations from a re-analysis of the deposited data

How the results depend on the processing

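No paired analysis was possible because there is 1 library per dosage, and no library could be left out. Of 66 counts under alternatives, 41 stayed within 1.5 times and 25 did not. With sites in the gene span only, the basal dosage gave 1 gene and 1 site, called at both dosages, and the increased dosage 3 sites, 1 called at both. Within 2 kb the basal dosage gave 2 genes and the increased dosage 4, where 11.1% and 10.8% of protein-coding genes had a site. Within 50 kb there were 8 genes and 7 sites at the basal dosage, 7 of them called at both, and 9 genes and 10 sites at the increased dosage, 7 called at both. Within 100 kb these became 8 genes, 11 sites and 10 called at both, and 9 genes, 14 sites and 10 called at both, where 38.6% and 37.4% of protein-coding genes had a site. Keeping the widest 50% of the list left 3 sites at the increased dosage, and so did the first 50% in list order, an alternative chosen after seeing the data. Without mismatches, 1 site held the consensus and 1 match lay in a site at either dosage, and with 3 mismatches 5 matches lay in a site at the increased dosage. The wider distances and narrower lists change the counts by their construction. Without reads or depth, a site absent from a list cannot be told apart from a site below the calling threshold.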

Other observations

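TPH2 was singled out after its values were seen. The site over its start, chr12:72332401-72332949 at the basal dosage and to 72332899 at the increased dosage, had order numbers 303 and 359 but no consensus match with up to 3 mismatches. It held both parts of the consensus without a mismatch at 8 free bases in place of 2, in capitals here:
TPH2, chr12:72332636-72332656, minus strand: CTGTCCagaaccctGGTGCTG
The centre of this sequence lay 21 bp after the canonical start of TPH2 and 29 bp from the midpoint of the basal site, and 4 bp from that of the site at the increased dosage. Among the first 10% of sites by list order, 37 of 532 at the basal dosage, or 6.95%, had no match with up to 3 mismatches, and 33 of these 37 held the parts at another distance with up to 1 mismatch in each. At the increased dosage they were 36 of 505, or 7.13%, and 33 of the 36. Such parts were found in 28.8% of all sites at either dosage, where the median width was 299 bp. Sites early in the lists are wider and no share was computed for sites of like width, so these counts have no matched background. SPR also had a wide site without a consensus match or such parts, with order numbers 559 and 566. TPH1, the other tryptophan hydroxylase gene, had no site within 10 kb.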
